A study of Mus musculus with 7 samples.

Results

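The genes described here are 9 genes that mark tuft cells, chosen by symbol for tuft cell identity, taste-type signalling and eicosanoid synthesis: *Dclk1*, *Trpm5*, *Pou2f3*, *Gfi1b*, *Alox5*, *Alox5ap*, *Ptgs1*, *Hpgds* and *Rgs13*. All 9 have a row among the 14795 genes of the table, and 8 of them passed the filter on low values that left 13399 genes for testing. Whole duodenum of 3 *Ppara lox/lox* mice was compared by RNA sequencing with that of 4 *Ppara* I-KO mice, in which a *Villin-Cre* transgene, expressed in the intestinal epithelium, deletes the floxed *Ppara* gene. All 7 were C57BL/6 mice, as the labels and the study describe them. Their sex (male) and diet (8 weeks of a high-fat diet, HFD) are given by the paper and not by the labels. Both groups carry the floxed alleles, and only the I-KO mice carry *Villin-Cre*. According to the labels, food was withheld for 6 h on the last day and returned for 6 h before the tissue was taken. Mice that carry Cre without floxed alleles are not among these libraries, so effects of the transgene and of the deletion cannot be told apart.

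Tuft cells are rare chemosensory cells of the gut epithelium. They share a signalling cascade with the taste cells of the tongue, in which a receptor acts through a phospholipase and calcium release to open the cation channel TRPM5, and they sense succinate and other products of gut microbes and parasites. On activation they release interleukin-25, leukotrienes, prostaglandins and acetylcholine, which engage group 2 innate lymphoid cells, and interleukin-13 from these lymphoid cells in turn raises the number of tuft and goblet cells. PPARα is a nuclear receptor for fatty acids that controls genes of fatty acid oxidation, and eicosanoids are among the lipids known to bind PPAR receptors.

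None of the 8 tuft cell genes tested differed between the genotypes at an adjusted p below 0.05, and their log2 fold changes lay between -0.21 for *Trpm5* and 0.23 for *Ptgs1*. Of the 8, 5 were higher and 3 lower in the I-KO mice, with a median log2 fold change of 0.04 beside 0.0017 over all genes tested, of which 50.6% were higher. *Ptgs1*, which codes for cyclooxygenase-1, was the only one of the 8 with an unadjusted limma p below 0.05 and the only one of the 9 whose values did not overlap between the groups. Over all genes tested, limma with Benjamini-Hochberg adjustment called 4 genes (0.0299%), 4.74% had an unadjusted p below 0.05 and 6.19% did not overlap, so that 1 gene of 8 is the count to be read against these shares. With another scaling, no filter or a pseudocount of 0.5, the unadjusted limma p of *Ptgs1* was between 0.0319 and 0.0345. With an intensity trend and robust fit it was 0.0225, and with a replicate block, which drops I-KO 4, 0.0233. With each library scaled to its column total, the gene below 0.05 was *Trpm5* (0.0323) and not *Ptgs1* (0.0747). The libraries kept also mattered: without I-KO 3 *Trpm5* had 0.0399 and *Ptgs1* 0.0735, and without lox/lox 3 *Hpgds* had 0.0447 and *Ptgs1* 0.0445. The lowest bound of their 95% confidence intervals was -0.46, that of *Trpm5*, and the highest 0.47, that of *Hpgds*, both on the scale of log2(CPM + 1), which understates changes of low genes. Of the 8 intervals, 7 include 0.

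The libraries held between 20740121 and 25889488 reads on the listed genes, as estimated from the smallest steps of the deposited values. *Ppara*, the targeted gene, lies at chr15:85734983-85802819 of GRCm38 on the plus strand. It stood at 53.42, 49.29 and 63.18 CPM (the reads of a gene scaled to an adjusted library size) in lox/lox mice 1 to 3 and at 33.05, 40.58, 47.51 and 69.90 CPM in I-KO mice 1 to 4. Thus 3 of the 4 I-KO libraries were below all lox/lox libraries and I-KO 4 was above them (log2 fold change -0.25, SE 0.22, limma adjusted p = 0.954), so the total of reads on the gene does not check the labels of single libraries. Whole duodenum also holds cells outside the epithelium, and which exon is deleted was not used here. The epithelial gene *Vil1* (villin) was at 2735 to 2884 CPM in lox/lox and at 2947 to 3383 CPM in I-KO libraries. These values did not overlap (log2 fold change 0.14, limma adjusted p = 0.954), as was the case for 6.19% of all genes tested. Pancreatic transcripts set 2 libraries apart: the 12 acinar genes below 1 CPM in most libraries summed to 348.1 CPM in I-KO 1 and 58.3 CPM in lox/lox 2, but to between 0.25 and 3.30 CPM in the other 5.

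Promoter sequences are shown for the 3 tuft cell genes on which the text turns: *Ptgs1* as the one without overlap, *Trpm5* as the one with the largest decrease, and *Hpgds* as the only one with a match to a motif searched. They were taken from RefSeq (GRCm38.p6) and read 5′ to 3′ on the strand of the gene. For *Ptgs1* (chr2:36230176-36230425, plus strand) and *Trpm5* (chr7:143094643-143094892, minus strand) the 250 bases before the start are given, with CpG dinucleotides in capitals. For *Hpgds* (chr6:65144886-65144915, minus strand) 30 bases around the octamer are given, with the octamer in capitals.
Ptgs1: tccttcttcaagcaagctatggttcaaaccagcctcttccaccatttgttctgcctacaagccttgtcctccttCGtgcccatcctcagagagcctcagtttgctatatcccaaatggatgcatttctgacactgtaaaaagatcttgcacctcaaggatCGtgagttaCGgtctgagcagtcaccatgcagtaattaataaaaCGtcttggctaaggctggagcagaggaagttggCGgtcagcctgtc
Trpm5: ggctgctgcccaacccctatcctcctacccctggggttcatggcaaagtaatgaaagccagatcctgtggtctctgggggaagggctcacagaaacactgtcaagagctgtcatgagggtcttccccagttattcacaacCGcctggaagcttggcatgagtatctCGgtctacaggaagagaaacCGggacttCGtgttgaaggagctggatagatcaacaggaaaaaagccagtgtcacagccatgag
Hpgds: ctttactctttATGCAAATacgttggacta
The *Ptgs1* window holds 5 CpG and the *Trpm5* window 4, beside a median of 6 over all windows of this length. The search covered both strands of the 8 windows that RefSeq gave for 7 of the 9 genes, with 2 starts for *Dclk1* that lie 219 kb apart, and none for *Pou2f3* and *Alox5ap*. The octamer ATGCAAAT, the sequence that POU factors such as POU2F3 are known to bind, was in 1 of the 8 windows, that of *Hpgds*, and in 1.60% of all 32851 windows. In the GENCODE annotation these bases fall within the first exon of *Hpgds*, just after its annotated start. AAATCAC, the core bound by GFI1 factors, which can overlap the end of the octamer by its first 4 letters, was in 0 of 8 windows and in 2.75% of all. An exact direct repeat of AGGTCA spaced by 1 base, the form bound by PPAR and RXR dimers, was in 0 of 8 windows and in 0.0335% of all. With a share this low, 0 of 8 cannot tell whether these genes have sites for PPAR. Inexact repeats and bases outside the windows were not searched.

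*Pou2f3* (chr9:43123939-43210369, minus strand) codes for the transcription factor without which tuft cells do not form. It was at 2.12, 2.45 and 1.96 CPM in lox/lox mice 1 to 3 and at 1.58, 2.79, 2.81 and 2.15 CPM in I-KO mice 1 to 4. The I-KO libraries held both the lowest value and the 2 highest, so the groups overlapped widely (log2 fold change 0.05, SE 0.14). *Gfi1b* (chr2:28609450-28621982, minus strand), a transcriptional repressor restricted to tuft cells within the epithelium, was at 0.54, 0.56 and 0.43 CPM in the lox/lox mice and at 0.29, 0.79, 0.53 and 0.45 CPM in the I-KO mice. These values rest on an estimated 6 to 20 reads per library, below the filter, and the exact Poisson intervals of the lowest (0.105 to 0.625 CPM) and the highest (0.480 to 1.21 CPM) overlapped. An exact two-sided permutation test, with 35 ways to divide the 7 values, gave p = 0.943 for *Gfi1b* and p = 0.771 for *Pou2f3*, where the smallest possible p is 0.0286. In bulk tissue, fewer tuft cells and less RNA per tuft cell cannot be told apart.

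*Dclk1* (chr3:55242364-55539068, plus strand) codes for the doublecortin-like kinase by which tuft cells are usually stained. It was at 11.26, 13.81 and 13.48 CPM in lox/lox mice 1 to 3 and at 10.92, 12.30, 10.22 and 15.09 CPM in I-KO mice 1 to 4. Means were 12.9 ± 1.39 CPM (SD, n = 3) for lox/lox against 12.1 ± 2.15 CPM (SD, n = 4) for I-KO, and the I-KO values spanned the lox/lox range, with the highest value of all in I-KO 4 and the lowest in I-KO 3 (log2 fold change -0.09, SE 0.13). The gene is also expressed in neurons. The 12 genes listed for enteric neurons and glia summed to between 46.2 and 50.8 CPM in lox/lox and between 44.2 and 59.1 CPM in I-KO libraries, and their part in *Dclk1* was not tested. *Rgs13* (chr1:144138654-144177372, minus strand), a regulator of G protein signalling, was at 4.05, 3.69 and 5.23 CPM in lox/lox and at 3.11, 4.09, 4.50 and 4.34 CPM in I-KO mice, with overlapping groups (log2 fold change -0.09, SE 0.13). Germinal centre B cells are another known source of *Rgs13*. The 12 genes listed for these and other B cells summed to between 140 and 230 CPM in lox/lox and between 137 and 272 CPM in I-KO libraries, and their part in *Rgs13* was not tested.

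*Trpm5* (chr7:143069153-143094642, minus strand) codes for the cation channel at the end of the taste-type cascade. It was at 27.99, 23.12 and 21.73 CPM in lox/lox mice 1 to 3 and at 19.68, 20.39, 23.84 and 19.55 CPM in I-KO mice 1 to 4. Thus 3 I-KO libraries were below all lox/lox libraries, and I-KO 3 was above lox/lox 2 and 3. The means were 24.3 ± 3.29 CPM (SD, n = 3) for lox/lox against 20.9 ± 2.02 CPM (SD, n = 4) for I-KO, a ratio of 0.859. The difference did not pass the adjusted threshold (log2 fold change -0.21, SE 0.11, limma adjusted p = 0.954), and the exact permutation test gave p = 0.143. Without lox/lox 1, which held the highest value, the log2 fold change was -0.10.

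Of the other 14 genes listed for taste-type signalling, 7 have a row, and *Gnat3*, *Gng13* and *Sucnr1* were among those not analysed here. All 7 were tested, 6 were higher and 1 lower in the I-KO mice, none was called or had an unadjusted limma p below 0.05, and the median log2 fold change was 0.06. *Plcb2*, the phospholipase upstream of TRPM5, was at 11.50 to 16.11 CPM in lox/lox and 13.95 to 15.57 CPM in I-KO libraries (log2 fold change 0.15). *Itpr2*, a calcium release channel that many cell types express, was the 1 gene of the 7 without overlap, beside 6.19% of all genes tested. It was at 29.04 to 32.29 CPM in lox/lox and 32.60 to 34.44 CPM in I-KO libraries (log2 fold change 0.12). *Tas1r3*, a taste receptor subunit, was at 0.74 to 1.48 CPM in the 7 libraries.

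The wider list of tuft cell identity genes held 40 symbols, of which 38 have a row and 33 were tested. Of these, 22 were higher and 11 lower in the I-KO mice, none was called, and the median log2 fold change was 0.04. Not all listed genes are particular to tuft cells in whole duodenum, and *Krt18* is also on the pan-epithelial list. *Rac2* and *Spib* were highest in I-KO 1, as were the summed myeloid genes and the summed B cell genes. The part of other cells in this list was not tested. Of the 33 tested, *Ccdc28b* alone had an unadjusted p below 0.05 and no overlap (log2 fold change 0.23, limma adjusted p = 0.932), beside 4.74% and 6.19% of all genes tested. It was at 3.16 to 3.42 CPM in lox/lox and 3.81 to 4.31 CPM in I-KO libraries. Of 3 others, chosen for their known roles after the values were seen, log2 fold changes were 0.06 for the actin-binding protein *Avil*, 0.06 for the interleukin-25 receptor subunit *Il17rb* and 0.01 for *Siglec5*, the name under which *Siglecf* is listed. By coefficient of variation over the 7 libraries (47.4%), *Camk2b* varied most of the 33 tested, from 3.39 CPM in I-KO 3 to 25.22 CPM in lox/lox 3, with a log2 fold change of -0.67 and an interval that includes 0. *Chat*, the enzyme of acetylcholine synthesis, was at 0.30 to 0.74 CPM in lox/lox and 0.38 to 0.45 CPM in I-KO libraries, below the filter.

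**Figure D1:**
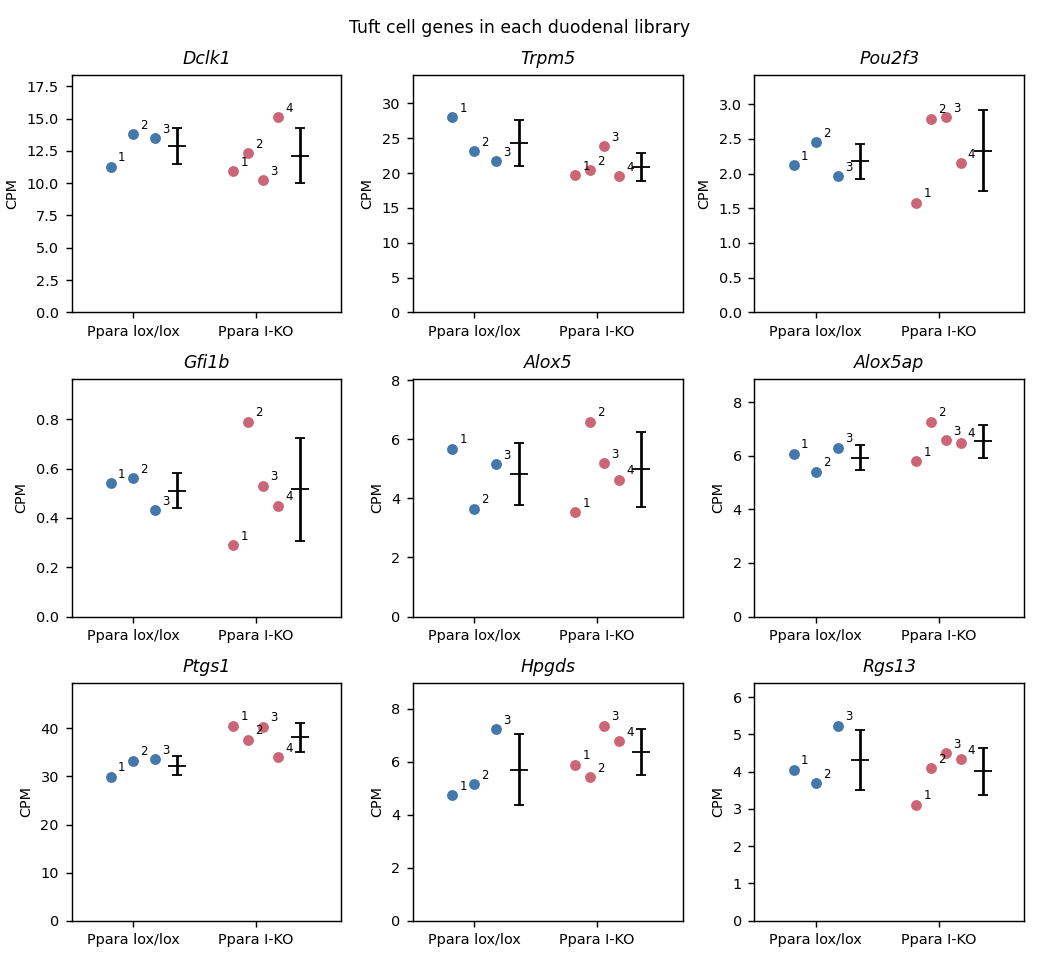
CPM (y axis, from 0) of each of the 9 tuft cell genes in the 3 lox/lox (blue) and 4 I-KO (red) libraries, numbered by replicate, with mean and SD in black. Only in *Ptgs1* do the 2 groups not overlap, and in *Trpm5* 3 of 4 I-KO libraries lie below all lox/lox libraries.

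**Figure D2:**
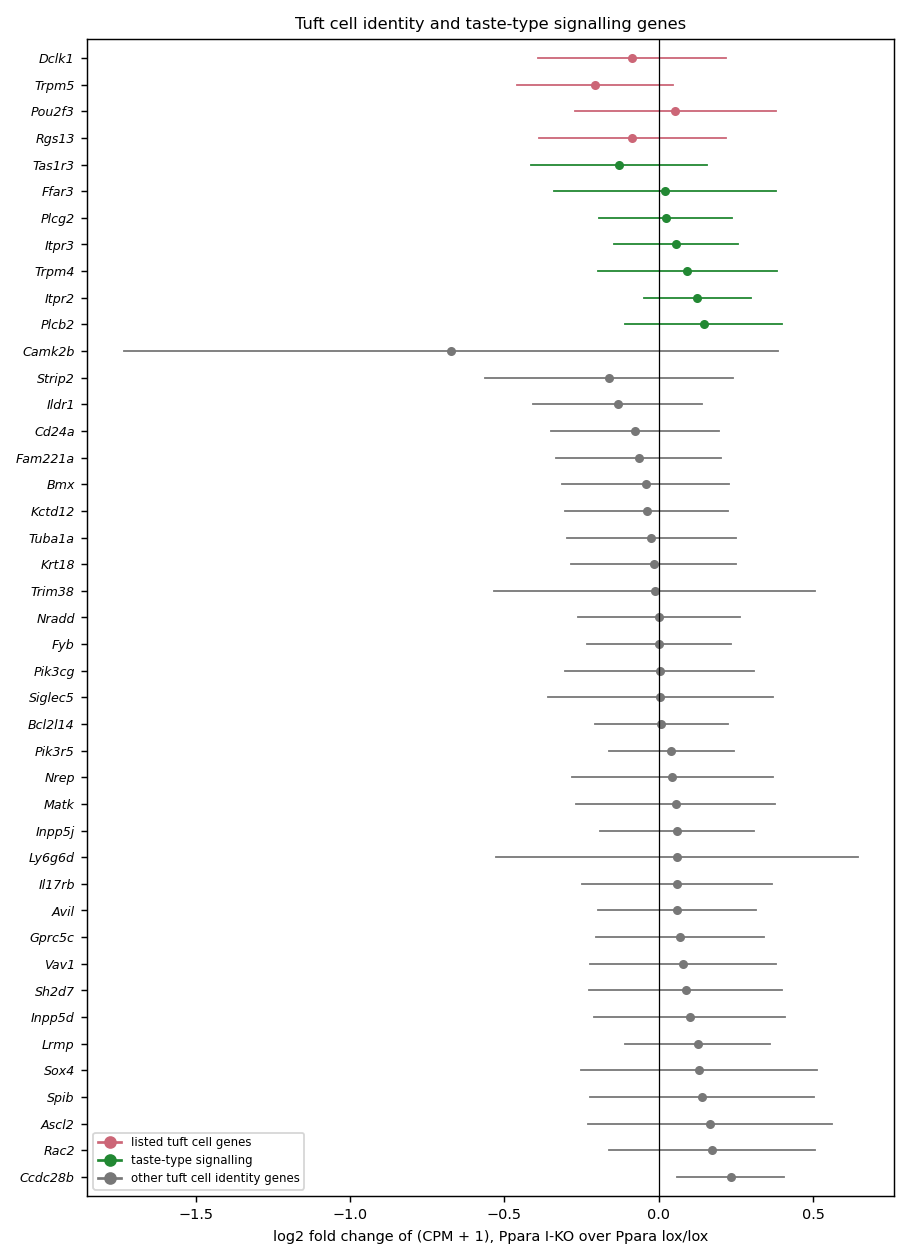
Log2 fold change (x axis, I-KO over lox/lox, of CPM + 1) with its 95% confidence interval from limma for the tested tuft cell identity and taste-type signalling genes (rows). Most points lie near 0, *Camk2b* has the widest interval, and only the interval of *Ccdc28b* leaves out 0.

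*Alox5* (chr6:116410077-116461178, minus strand) codes for 5-lipoxygenase, which makes the leukotriene precursor from arachidonic acid. It was at 5.68, 3.65 and 5.15 CPM in lox/lox mice 1 to 3 and at 3.54, 6.60, 5.19 and 4.63 CPM in I-KO mice 1 to 4. The lowest and the highest value were both in I-KO mice (log2 fold change 0.03, SE 0.18). *Alox5ap* (chr5:149264767-149288153, plus strand), the protein that presents arachidonic acid to 5-lipoxygenase, was at 6.07, 5.40 and 6.29 CPM in lox/lox and 5.80, 7.27, 6.57 and 6.49 CPM in I-KO mice. Here 3 I-KO libraries were above all lox/lox libraries and I-KO 1 was not (log2 fold change 0.12, SE 0.09, exact permutation p = 0.257). Its log2 fold change was 0.07 without lox/lox 2, 0.08 without I-KO 2 and up to 0.17 without I-KO 1.

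Both genes are also expressed by myeloid and mast cells. The 15 myeloid genes with a row summed to between 375 and 507 CPM in lox/lox and between 471 and 573 CPM in I-KO libraries, and 11 of the 14 tested were higher in I-KO mice, none was called, and their median was 0.19 on the log2 scale. Of the 14, 2 had an unadjusted limma p below 0.05, *C1qc* and *Cx3cr1* (log2 fold changes 0.29 and 0.27), beside 4.74% of all genes tested. The 3 lower ones were *Itgam* (log2 fold change -0.18), *Cd14* (-0.12) and *Csf3r* (-0.10). The 8 mast cell genes with a row summed to between 22.3 and 27.9 CPM and between 22.8 and 30.3 CPM, and the proteases *Cpa3*, *Mcpt4* and *Tpsb2* stayed below 1 CPM in every library. The part of these cells in the values of *Alox5* and *Alox5ap* was not tested.

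Of 15 other genes listed for the leukotriene pathway, 13 have a row and were tested. In the I-KO mice 9 were higher and 4 lower, none was called or had an unadjusted p below 0.05, and the median log2 fold change was 0.03. *Ltc4s*, the synthase of leukotriene C4, was at 5.32 to 8.33 CPM in lox/lox and 5.75 to 8.14 CPM in I-KO libraries (log2 fold change -0.02), and *Lta4h*, the hydrolase on the way to leukotriene B4, was at 227 to 253 CPM over all 7 (0.01). *Cysltr1*, a receptor for cysteinyl leukotrienes, was at 2.52 to 3.14 CPM in lox/lox and 1.44 to 2.69 CPM in I-KO libraries (log2 fold change -0.26, limma adjusted p = 0.954). *Ggt5*, which trims leukotriene C4, was the 1 gene of the 13 without overlap, at 9.92 to 12.06 CPM and 12.14 to 13.89 CPM, beside 6.19% of all genes tested.

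*Ptgs1* (chr2:36230426-36252272, plus strand) codes for cyclooxygenase-1, the constitutive enzyme at the entry of prostaglandin synthesis. It was at 29.92, 33.24 and 33.55 CPM in lox/lox mice 1 to 3 and at 40.52, 37.63, 40.31 and 33.98 CPM in I-KO mice 1 to 4. All 4 I-KO libraries were above all lox/lox libraries, with a gap of less than 1 CPM between I-KO 4 and lox/lox 3. The means were 32.2 ± 2.01 CPM (SD, n = 3) for lox/lox against 38.1 ± 3.05 CPM (SD, n = 4) for I-KO, a ratio of 1.18. The log2 fold change was 0.23 (SE 0.09, 95% confidence interval 0.02 to 0.44), with an unadjusted limma p of 0.0328 and an adjusted p of 0.954. An exact two-sided permutation test gave p = 0.0571. *Ptgs1* thus failed the correction for multiple tests, and its unadjusted limma p moved between 0.0117 without I-KO 4 and 0.126 without lox/lox 1 as single libraries were left out. Without lox/lox 2 and I-KO 1, the libraries with pancreatic transcripts, the log2 fold changes of *Ptgs1* and *Trpm5* were 0.23 and -0.21.

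*Ptgs1* is also known from fibroblasts, smooth muscle, platelets and macrophages, so the markers of these cells are given beside it. The 8 fibroblast and mesothelial genes summed to between 264 and 378 CPM in lox/lox and between 357 and 392 CPM in I-KO libraries, and 5 of them were higher and 3 lower in I-KO mice, with a median of 0.10 on the log2 scale. The 3 lower ones were *Lum* (log2 fold change -0.15), *Upk3b* (-0.33) and *Msln* (-0.07). Among the higher ones *Col3a1*, a fibrillar collagen, was at 84.96 to 128.67 CPM in lox/lox and 138.16 to 145.22 CPM in I-KO libraries (log2 fold change 0.41, limma adjusted p = 0.887). It was the 1 gene of the 8 without overlap, beside 6.19% of all genes tested. It was also the 1 gene with an unadjusted limma p below 0.05, beside 4.74% of all. The 7 smooth muscle genes summed to between 1641 and 1917 CPM and between 1652 and 2161 CPM, with a median log2 fold change of 0.13. The 7 platelet and erythroid genes with a row had a median of 0.13 over the 5 tested, and the myeloid values stand above. The 8 pan-epithelial genes summed to between 11409 and 13810 CPM in lox/lox and between 12205 and 15004 CPM in I-KO libraries, with a median of 0.09. Of these 8, *Vil1* was the 1 gene without overlap, with higher values in I-KO mice. The part of any of these cells in the *Ptgs1* values was not tested.

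*Hpgds* (chr6:65117293-65144908, minus strand) codes for the hematopoietic prostaglandin D synthase, which acts on the product of the cyclooxygenases. It was at 4.74, 5.15 and 7.23 CPM in lox/lox mice 1 to 3 and at 5.89, 5.42, 7.36 and 6.78 CPM in I-KO mice 1 to 4. The groups overlapped, with lox/lox 3 among the I-KO values (log2 fold change 0.15, SE 0.14, exact permutation p = 0.429). Leaving out single libraries moved its log2 fold change between 0.04 without lox/lox 1 and 0.30 without lox/lox 3, and among the others it was 0.09 without lox/lox 2 and 0.08 without I-KO 3. The ratio of *Ptgs1* to *Trpm5*, the 2 genes that differed most in opposite directions, was chosen after their values were seen and is given without a test. It was between 1.07 and 1.54 in lox/lox and between 1.69 and 2.06 in I-KO libraries.

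Of 22 other prostanoid genes 20 have a row and 17 were tested, 13 of them higher and 4 lower in the I-KO mice, none called, and their log2 fold changes had a median of 0.06. *Ptges3*, a cochaperone also known as p23 and as a cytosolic prostaglandin E synthase, had the largest difference, at 97.26, 94.89 and 90.87 CPM in lox/lox and 61.02, 82.10, 66.21 and 78.46 CPM in I-KO mice. All I-KO values were below all lox/lox values (log2 fold change -0.40, limma adjusted p = 0.830). *Ptgr1*, a reductase that inactivates prostaglandins and leukotriene B4, was at 84.72 to 92.18 CPM in lox/lox and 92.75 to 116.10 CPM in I-KO libraries (log2 fold change 0.22, limma adjusted p = 0.954). *Ptgs2*, the inducible cyclooxygenase-2, was at 2.02 to 3.43 CPM and 2.86 to 3.85 CPM with overlap. In the eicosanoid lists 2 of the 17 prostanoid and 0 of the 13 leukotriene genes thus had an unadjusted p below 0.05, beside 4.74% of all genes. Values of 3 of the 17 did not overlap, beside 6.19% of all genes: *Ptges3*, *Ptgr1* and *Ptgis*. *Ptgis* was at 1.73 to 1.93 CPM in lox/lox and 1.96 to 2.07 CPM in I-KO libraries.

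**Figure D3:**
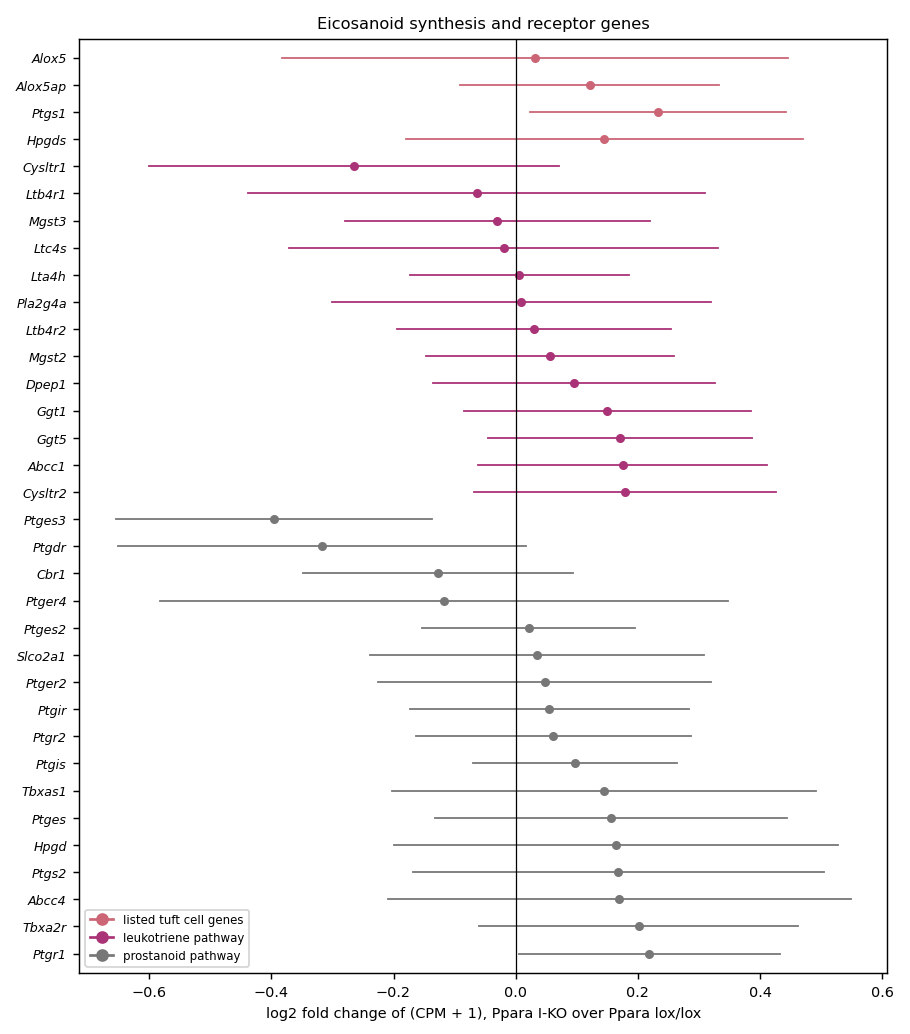
Log2 fold change (x axis, I-KO over lox/lox, of CPM + 1) with its 95% confidence interval from limma for eicosanoid genes (rows), with the 4 genes chosen as tuft cell genes on top. The intervals of *Ptgs1*, *Ptgr1* and *Ptges3* leave out 0, the last with lower values in I-KO.

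Of 17 genes of the type 2 cytokine circuit that tuft cells feed, 12 have a row and 10 were tested. Interleukins 4, 5, 9 and 13 and *Tslp* were not analysed here, nor was interleukin-25, which is on the tuft cell identity list. In the I-KO mice 5 were higher and 5 lower, none was called, and the median log2 fold change was -0.01. *Pparg*, a nuclear receptor related to PPARα, was at 16.64, 15.91 and 11.87 CPM in lox/lox and 19.73, 18.11, 18.06 and 20.38 CPM in I-KO mice (log2 fold change 0.36, limma adjusted p = 0.954). It was the 1 gene of the 10 without overlap, beside 6.19% of all genes tested. It was also the 1 gene with an unadjusted limma p below 0.05, beside 4.74% of all. *Il33*, the alarmin that acts with interleukin-25, was at 22.24 to 28.78 CPM and 18.87 to 26.48 CPM (log2 fold change -0.19). *Clca3*, a goblet cell product that interleukin-13 raises, was at 1460 to 1651 CPM in lox/lox and 1320 to 1771 CPM in I-KO libraries (0.00023).

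Levels of the 9 genes can be set beside each other only per length of exonic sequence. On the scale of mean CPM per kb, *Ptgs1* was highest at 9.16, followed by *Alox5ap* at 4.42, *Trpm5* at 3.49, *Rgs13* at 2.50, *Alox5* at 1.20, *Hpgds* at 0.947, *Dclk1* at 0.813, *Pou2f3* at 0.734 and *Gfi1b* at 0.280. The median of the 12637 tested genes with a length was 4.79 CPM per kb, so that only *Ptgs1* was above it. Over the 7 libraries the ranges of neighbours in this order were separate between *Ptgs1* and *Alox5ap*, between *Rgs13* and *Alox5* and between *Pou2f3* and *Gfi1b*. The other neighbours overlapped and their order is not set beyond the spread between mice. Lengths are of all annotated exons joined, so a gene with a long exon that these cells do not use, or with 2 starts as *Dclk1*, is placed too low.

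The spread between mice of one genotype was compared with the spread that counting reads alone would give. For *Alox5ap* the coefficient of variation was 8.77%, beside 8.38% from counting, and for *Gfi1b* it was 32.7% beside 29.2%. In these 2 genes little more than counting error was seen between mice. *Alox5* (24.2% beside 9.46%), *Trpm5* (11.6% beside 4.46%) and *Dclk1* (15.1% beside 5.93%) spread by 2.55 to 2.61 times as much as counting gives. *Ptgs1*, with 803 reads per library on average, had the smallest spread of the 9, at 7.54% beside 3.53%.

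**Figure D4:**
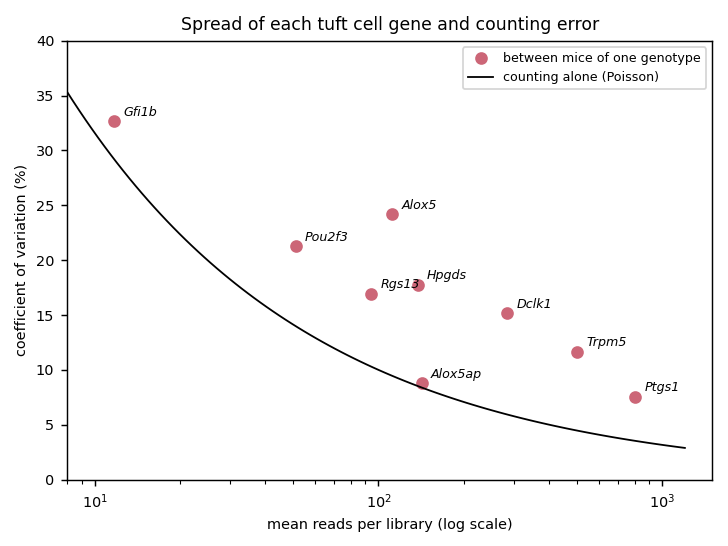
Coefficient of variation between mice of one genotype (y axis, %) against mean estimated reads per library (x axis, log scale) for the 9 tuft cell genes, with the Poisson expectation as a line. *Alox5ap* and *Gfi1b* lie close to the line and the other 7 above it.

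To ask whether these genes rise and fall together from duodenum to duodenum, the 36 pairs among the 9 genes were correlated on log2(CPM + 1) over the 7 libraries. Pearson's r was positive in 23 pairs and negative in 13, with a median of 0.19, and none of the 36 passed Benjamini-Hochberg adjustment. In 2 pairs (5.56%) an exact permutation p was below 0.05 before adjustment, where that threshold alone lets through 1.8 of 36. *Pou2f3* and *Gfi1b* had r = 0.860 (exact permutation p = 0.0145, adjusted 0.361) and Spearman's rho = 0.714 (exact permutation p = 0.0881, adjusted 0.838), and r was 0.932 without the 2 libraries farthest from the median of *Pou2f3*. *Alox5* and *Alox5ap* had r = 0.839 (exact permutation p = 0.0200, adjusted 0.361) and rho = 0.714 (exact permutation p = 0.0881, adjusted 0.838), and r was 0.575 without the 2 libraries farthest from the median of *Alox5*. With the mean of each genotype subtracted, r was 0.871 for the first pair and 0.961 for the second. Each pair holds 1 gene, *Gfi1b* or *Alox5ap*, whose spread between mice was little more than counting error. What counting error does to these r was not tested.

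*Dclk1* and *Trpm5*, both commonly used as tuft cell markers, had r = -0.392 (exact permutation p = 0.392, adjusted 0.905) and rho = -0.429 (exact permutation p = 0.354, adjusted 0.838), and r was -0.06 without the 2 libraries farthest from the median of *Dclk1*. *Dclk1* and *Pou2f3* had r = -0.053 (exact permutation p = 0.907, adjusted 0.972) and rho = -0.071 (exact permutation p = 0.906, adjusted 0.932), and 0.478 without the same 2 libraries. With 7 libraries, these values do not show that the genes vary independently. The summed CPM of *Dclk1*, *Trpm5*, *Pou2f3* and *Gfi1b*, which *Trpm5* and *Dclk1* dominate, was 41.9, 39.9 and 37.6 in lox/lox and 32.5, 36.3, 37.4 and 37.2 in I-KO mice. All 4 I-KO sums were below all lox/lox sums, the nearest at 37.4 and 37.6 CPM. *Trpm5* alone overlapped, with 23.84 CPM in I-KO 3 above lox/lox 2 and 3. In the same library *Dclk1* had its lowest value, 10.22 CPM, so the separation of the sums rests on both genes. The sum was not tested, and it has no share over like sums to be read against. The sum over all 9 genes overlapped, at 91.07 to 95.05 CPM in lox/lox and 91.33 to 101.33 CPM in I-KO libraries. I-KO 1, the library with most pancreatic transcripts, was lowest in 4 of the 9 genes and above the mean in 1, *Ptgs1*, where it was highest. I-KO 3 was above the mean in 8 of the 9. Without I-KO 1 the median log2 fold change of the 8 tested genes was 0.16 in place of 0.04, and without I-KO 2 it was -0.05, with none called in either case.

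**Figure D5:**
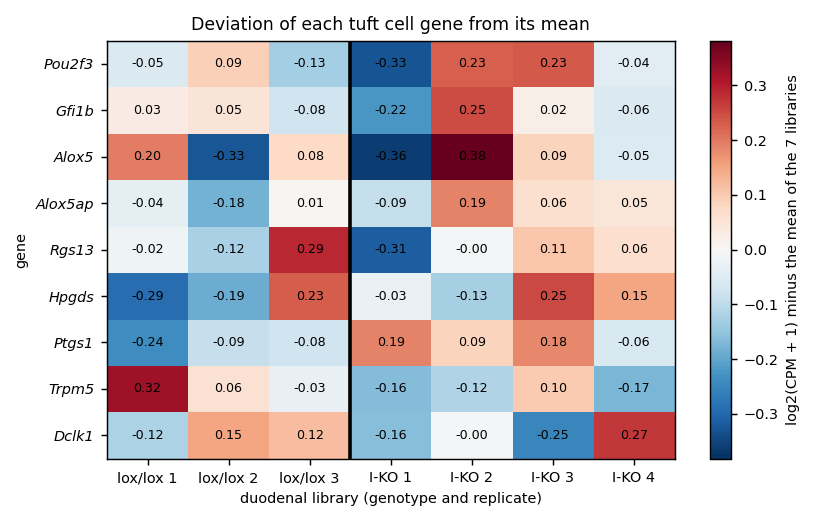
Deviation of log2(CPM + 1) from the mean of the 7 libraries (colour scale and printed values) for each tuft cell gene (rows) in each library (columns, genotypes divided by a line). *Pou2f3* and *Gfi1b* share their low value in I-KO 1 and high value in I-KO 2, *Alox5* and *Alox5ap* their high value in I-KO 2, and *Dclk1* is high in I-KO 4.

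Genes outside the 9 were ranked by their mean correlation with *Dclk1*, *Trpm5*, *Pou2f3* and *Gfi1b* over the 7 libraries, with the mean of each genotype subtracted. The 10 highest of 13391 were *Itgb1* (mean r 0.597), *Efnb2*, *Atp6v0a2*, *Asah1*, *AI314180*, *Tead1*, *Bpnt1*, *Slc28a3*, *Ppp2ca* and *Frrs1* (0.578). They followed *Pou2f3* (r of 0.824 to 0.945) more than *Dclk1* (r of -0.0039 to 0.324), and each had its lowest value in I-KO 1. None of the 10 is on the tuft cell or taste-type lists. Of the 40 genes on those lists, 1 was within the first 100 places, 4 (10%) within the first 500 (3.73% of places) and 9 (22.5%) within the first 1340 (10% of places), with a median place of 4748.5 beside a middle place of 6696. These shares are a description, since listed genes share libraries and were not tested as a set. The highest was *Bmx*, a kinase of tuft cells, at place 30.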

How the data were processed

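The authors deposited 1 table of signal values for 14795 genes, CPM scaled to an adjusted library size and rounded to 2 decimals, and a last line without a gene name was dropped. Per the labels, 100 base single reads of a stranded mRNA kit were used, and the submitters' processing notes name FastQC 0.11.2, TopHat2 2.0.13, Picard 1.80, HTSeq 0.6.1 and edgeR with mm10. The strand setting of the counting is not given in the sources used here. In every library the low values are multiples of what 1 read is worth, which gave estimates of the reads per library and per gene. Their share within 0.1 of a step was below 95% in some libraries (from 79.2%), so models for counts were not used.

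Genes above 1 CPM in at least 3 libraries were tested on log2(CPM + 1) by limma 3.58.1 (R 4.3.3), fitting genotype alone to all 7 libraries, with Benjamini-Hochberg adjustment over 13399 genes. The script was tested on simulated data. Fold changes on this scale understate those of low genes. Single genes were also tested by exact permutation over the 35 ways to divide the 7 values, and pairs of genes by exact permutation of the libraries. Each library is taken as 1 mouse, and p-values measure the spread between these mice. Counting intervals cover counting error only. Coordinates and exonic lengths come from GENCODE M21 (GRCm38), and *Siglecf* was matched by a RefSeq synonym.

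The 9 genes and all lists were chosen with earlier results of these data known. Genes named are the 9, *Ppara*, of each list those past the threshold, the 3 with the smallest p and the 3 with the highest mean, as far as they add to the text, and the 10 most alike in pattern. *Tas1r3*, *Avil*, *Il17rb*, *Siglec5*, *Camk2b*, *Chat*, *Ltc4s*, *Ptgs2*, *Clca3*, *Bmx* and other genes named outside this rule were chosen after their values were seen, for their known role or their place in a range. The values of 1 listed gene are not reported here, and it is left out of the plot of tuft cell identity genes.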

Additional observations from a re-analysis of the deposited data

How the results depend on the processing

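None of the tuft cell genes was called under any of the alternatives run: 2 other scalings, no filter on low values, a pseudocount of 0.5, an intensity trend with a robust fit, a replicate block, an adjusted p of 0.1, each library left out, and lox/lox 2 with I-KO 1 left out. An unadjusted p below 0.05 counted 1 of them, and 635 of all genes. The number of all genes called was 9 with the trend and robust fit, and between 3 and 5 when single libraries were left out. The median log2 fold change of the tuft cell genes tested was 0.16 without I-KO 1 and between -0.052 and 0.16 over all single libraries left out. *Ptgs1* stayed between 0.18 and 0.29, *Trpm5* between -0.28 and -0.10, *Hpgds* between 0.04 and 0.30 and *Alox5ap* between 0.07 and 0.17 over 14 alternatives, in 1 of which (column totals) the median of all genes moved to -0.03. Fold changes near 0 changed sign in 7 cases. That of *Alox5* was -0.12 without lox/lox 2 and -0.09 without I-KO 2, that of *Pou2f3* -0.014 without I-KO 2 and -0.016 without I-KO 3, that of *Rgs13* 0.033 without lox/lox 3 and 0.0063 without I-KO 1, and that of *Dclk1* 0.0072 without lox/lox 2 and I-KO 1. When single libraries were left out, the highest value was 0.16 for *Alox5*, 0.17 for *Pou2f3*, 0.033 for *Rgs13* and -0.01 for *Dclk1*, and the lowest was -0.17 for *Rgs13* and -0.19 for *Dclk1*. Fewer samples were fitted in these cases, and the cause was not tested further. Replicate numbers did not pair the samples, with correlations of same-numbered deviations of -0.01, 0.18 and -0.01, and the fit with the replicate block on numbers 1 to 3 gave 3 genes called, none of them a tuft cell gene, and a median of 0.06. It drops I-KO 4. Count models in edgeR and DESeq2 were not run, since whole reads were not recovered at the accuracy required. Counting error limits *Gfi1b*, with 6 to 20 reads per library, most.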
